A study of Mus musculus with 6 samples.

Results

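The genes described here are 36 mouse genes of fatty acid uptake, activation, mitochondrial import and oxidation, with 4 of their regulators, out of 54532 genes in the deposited table. They were taken by symbol from a list of genes of known function, and all 36 were found. That list was chosen with earlier results of these data known. RNA was sequenced from heart ventricles of E12.5 embryos, in 3 libraries labelled control and 3 labelled as a conditional LSD1 knockout (LSD1, encoded by Kdm1a, removes methyl groups from histone H3). The labels name neither the Cre driver, the alleles, the strain nor the number of embryos per library, so it is not known in which ventricular cells the gene was deleted. Nothing says that the libraries of a group came from separate embryos, and the p-values measure the spread between these libraries, which may be technical in part.

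Long-chain fatty acids are released from circulating lipoproteins by lipoprotein lipase, enter cells with the help of CD36, are carried by fatty acid binding proteins and are joined to coenzyme A by acyl-CoA synthetases. The carnitine shuttle then moves the acyl group into the mitochondrial matrix, where each turn of beta oxidation removes an acetyl unit and passes electrons to the respiratory chain. The adult heart draws most of its energy from this pathway, while the embryonic heart relies largely on glucose and lactate, and the switch follows birth.

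The deposited values are FPKM, fragments scaled by exon length and library size, which allow levels to be compared roughly between genes. The length covers all annotated exon bases of a gene, whether or not they are used in this tissue. How reads under exons of overlapping genes were counted is not given. Whole reads worked back from FPKM and exon length totalled 17898947 to 20076028 per library, and 3 reads in a gene of 1 kb stood at 0.155 to 0.169 FPKM, a floor that covers counting error only. Kdm1a was at 29.99, 29.7 and 22.8 FPKM in the control and 10.7, 11.8 and 10.96 FPKM in the knockout libraries (log2 change -1.22, SE 0.11, limma adjusted p = 0.00274), and the groups did not overlap. All 15 cardiomyocyte markers of a list chosen with earlier results of these data known were tested, and 0 were called. Their summed levels were 15620 to 20167 FPKM in control and 16954 to 18615 FPKM in knockout. Some libraries stood apart. Control replicate 3 had the lowest cardiomyocyte sum, the largest erythroid sum (18025 FPKM, against 7921 to 16539 FPKM elsewhere) and the largest mitochondrially encoded share (9.03% of FPKM, against 4.64% to 7.10%). Knockout replicate 3 held 12.1 FPKM of Xist and 0 FPKM of the Y-linked Ddx3y, knockout replicate 1 held 1.11 FPKM of Xist beside 14.3 FPKM of Ddx3y, and 5.24 FPKM of the neural crest marker Sox10. The remaining libraries held Ddx3y with at most 0.0125 FPKM of Xist.

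None of the 36 genes passed the test, while most enzymes of the oxidation steps had slightly lower values in the knockout. The test was limma on log2(FPKM + 1), two-sided, with Benjamini-Hochberg adjustment over the 14149 genes whose mean was at least 0.5 FPKM. Because 1 is added to each value, this scale shrinks the changes of genes at low levels. Of the 36 genes 34 were tested, all but Cpt1b and Ppara, which stood below that mean. Called higher were 0 of 34 and called lower 0 of 34, while 1.91% of all genes tested were called higher and 0.466% lower. At an unadjusted limma p under 0.05 there were 9 lower and 3 higher genes, against 7.4% and 8.67% of all genes. The fitted change was below 0 for 26 of the 34 genes (76.5%), as it was for 54.1% of all genes. Every knockout library lay below every control library for 13 genes (38.2%) and above for 3 (8.82%), where all genes gave 10.4% and 11.0%. The median log2 change was -0.12 for these genes and -0.015 for all genes tested. For 31 of the 34 genes the 95% interval of the change lay within 1.5-fold in either direction, and for 12 the interval excluded 0. The share of all genes with such narrow intervals is not given here, and the added 1 narrows those of genes at low levels.

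**Figure D1:**
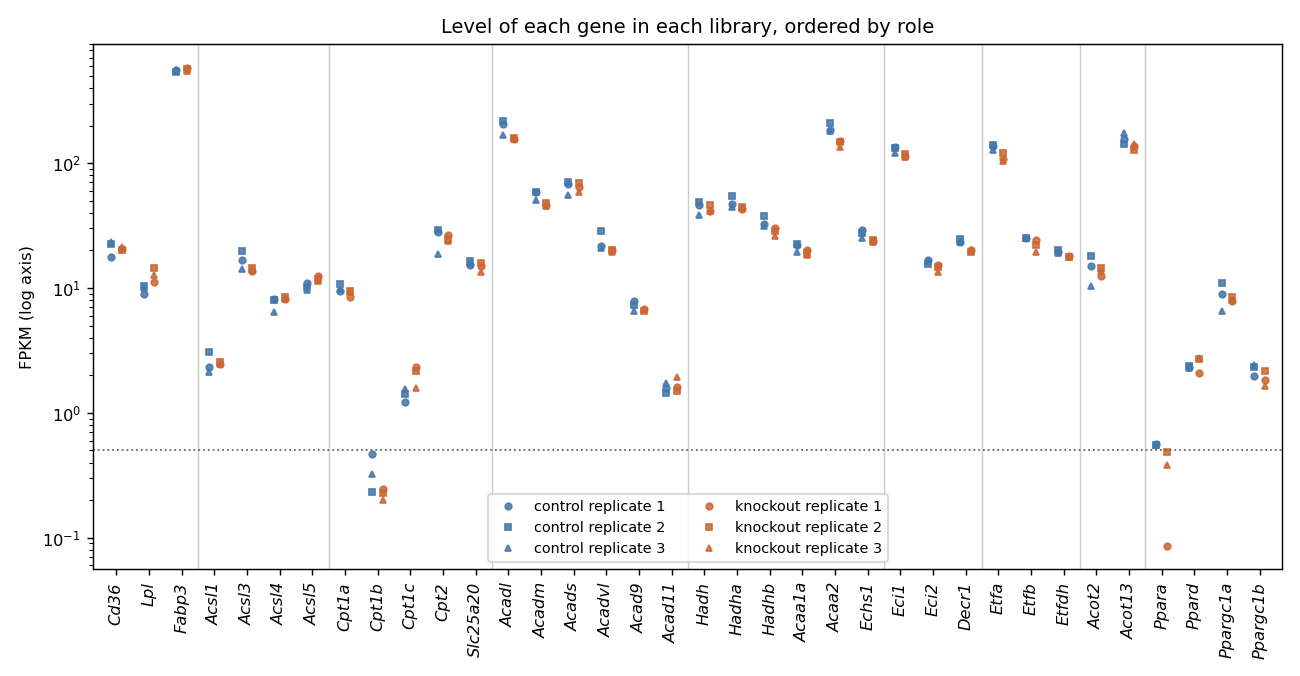
FPKM (log axis) of each of the 36 genes in each library, ordered by role and separated by grey lines; blue points are control and orange points knockout libraries, marker shapes are replicates, and the dotted line is the filter at 0.5 FPKM. Levels run from Fabp3 near 550 FPKM down to Cpt1b and Ppara, which lie near or below the filter, and within most genes the 6 libraries lie close together.

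Uptake was led by Fabp3, which encodes the heart-type fatty acid binding protein and held 28.6% of the summed control level of the 36 genes. Its levels were 552, 539 and 560 FPKM in the control and 580, 567 and 548 FPKM in the knockout libraries. The groups overlapped (log2 change 0.039, SE 0.074, limma adjusted p = 0.848). Rescaled to the same library sum (TPM), or without haemoglobin and mitochondrially encoded genes, every knockout library lay above every control library, with log2 changes of 0.12 and 0.11 (limma adjusted p = 0.454 and 0.464). In Fabp3, 19.6% of exon bases lie under exons of Gm10570 and Zcchc17, and a pseudogene, Fabp3-ps1, was listed at 4.64 to 6.79 FPKM. Cd36, the fatty acid translocase, stood at 17.8, 22.5 and 23.2 FPKM in control and 20.4, 20.3 and 21.2 FPKM in knockout ventricles. The knockout values lay inside the control range (log2 change -0.027, SE 0.10, limma adjusted p = 0.928).

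Lpl, the lipase that frees fatty acids at the vessel wall, had the largest positive log2 change of the tested genes, although Cpt1c had the larger ratio of means (1.45, against 1.31 for Lpl). It was at 8.99, 10.4 and 9.93 FPKM in the control and 11.3, 14.5 and 12.7 FPKM in the knockout libraries. Every knockout value lay above every control value, with means of 9.76 ± 0.702 and 12.8 ± 1.64 FPKM (SD, n = 3). The change did not pass the test (log2 change 0.36, SE 0.10, limma adjusted p = 0.130). With limma voom on recovered reads it did (adjusted p = 0.0443), where 2.96% of all genes were called higher. Over the other alternatives its adjusted p lay between 0.0694 and 0.449.

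Among the long-chain acyl-CoA synthetases, which activate fatty acids, Acsl3 was the most abundant. It stood at 16.8, 19.9 and 14.1 FPKM in control and 13.6, 14.4 and 14.0 FPKM in knockout ventricles. Control replicate 3 lay within the knockout range, so the groups overlapped (log2 change -0.25, SE 0.11, limma adjusted p = 0.342). Acsl5 was at 10.9, 10.1 and 9.61 FPKM in control and 12.4, 11.8 and 11.4 FPKM in knockout ventricles. Its groups did not overlap, but the change failed the test (log2 change 0.20, SE 0.07, limma adjusted p = 0.217). Acsl4, which prefers polyunsaturated acids such as arachidonate, ranged from 6.43 to 8.48 FPKM, and Acsl1, the main form of the adult heart, from 2.11 to 3.10 FPKM.

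The makeup of the synthetase pool differed between the libraries. Of the summed FPKM of Acsl1, Acsl3, Acsl4, Acsl5 and Acsl6, Acsl3 made up 44.0%, 48.3% and 43.6% in control and 37.0%, 38.7% and 38.9% in knockout. Acsl5 made up 28.5%, 24.5% and 29.8% in control and 33.8%, 31.6% and 31.7% in knockout. Acsl4 made up 21.3%, 19.6% and 19.9% in control and 22.3%, 22.7% and 22.5% in knockout. None of these shares overlapped between the groups, and Acsl1 stayed a small part in each library, at 6.12% to 7.51%. The shares are tied to a fixed total and were not tested. The ratio of Acsl1 to Acsl3, which does not depend on the scaling between libraries, was 0.139, 0.156 and 0.150 in control and 0.182, 0.176 and 0.176 in knockout. Its log2 difference of 0.27 gave a two-sided exact permutation p = 0.1, the smallest that 3 against 3 libraries allow, and 0.5 after adjustment over the 5 ratios compared.

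In the carnitine shuttle, Cpt1a encodes the liver form and Cpt1b the muscle form of the outer-membrane palmitoyltransferase, the step that malonyl-CoA inhibits. Cpt1a stood at 9.45, 10.7 and 9.87 FPKM in control and 8.47, 9.51 and 9.30 FPKM in knockout ventricles. These groups overlapped (log2 change -0.13, SE 0.07, limma adjusted p = 0.452). Cpt1b was at 0.466, 0.233 and 0.323 FPKM in control and 0.246, 0.229 and 0.199 FPKM in knockout, from 12 to 29 recovered reads per library. In each library it stood at 0.0214 to 0.0493 of the Cpt1a level, and the log2 ratio differed by -0.41 between the groups (two-sided exact permutation p = 0.3, adjusted p = 0.625), a test that cannot go below 0.1 here. With a library left out this difference ran from -0.70 to -0.11. The annotation puts 81.4% of its exon bases under exons of the readthrough model Gm44502, which was listed at 0 FPKM in all 6 libraries. How reads shared by both were counted is not given in the sources used here, so the Cpt1b level is uncertain.

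Cpt1c, the form best known from neurons, was at 1.22, 1.40 and 1.56 FPKM in control and 2.31, 2.17 and 1.58 FPKM in knockout. The groups touched closely without overlapping, and the change failed the test (log2 change 0.33, SE 0.12, limma adjusted p = 0.236). Summed levels of the neural crest and Schwann precursor markers, 0 of 4 tested called, were 26.5 to 44.5 FPKM in control and 43.4 to 48.6 FPKM in knockout. Most of that sum was Ednrb, at 24.8 to 41.8 FPKM in control and 37.0 to 43.0 FPKM in knockout. Sox10 stood at 5.24, 0.287 and 0.202 FPKM in knockout replicates 1, 2 and 3, and at 0 to 0.611 FPKM in control. The part of such cells in the Cpt1c value was not tested. Cpt2, the inner-membrane transferase, ranged from 18.7 to 29.0 FPKM in control and from 23.6 to 26.5 FPKM in knockout. Slc25a20, the carnitine-acylcarnitine carrier, ranged from 13.5 to 16.6 FPKM over the 6 libraries. For both the groups overlapped.

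The acyl-CoA dehydrogenases catalyse the first step of each oxidation turn and differ in the chain length they prefer. Acadl, the long-chain enzyme, was by far the most abundant of them, at 207, 219 and 167 FPKM in control and 157, 160 and 157 FPKM in knockout ventricles. All knockout values lay below the controls, and control replicate 3 was the control nearest to them (log2 change -0.31, SE 0.10, limma adjusted p = 0.201). Acadm, the medium-chain enzyme, stood at 59.2, 59.2 and 50.7 FPKM in control and 46.1, 47.5 and 45.5 FPKM in knockout. It showed the same order of libraries (log2 change -0.27, SE 0.08, limma adjusted p = 0.135). Without control replicate 3 both were called lower, Acadl with a log2 change of -0.43 (limma adjusted p = 0.0264) and Acadm with -0.35 (limma adjusted p = 0.0343), in a fit that called 0.763% of all genes lower.

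Acadvl, the very-long-chain enzyme, was also below the control range, at 20.2, 20.1 and 19.3 FPKM against 21.6, 28.7 and 20.9 FPKM. Its log2 change was -0.23 (SE 0.12, limma adjusted p = 0.371), and -0.094 without control replicate 2. Of its exon bases 42.9% lie under exons of Dvl2, listed at 5.58 to 7.82 FPKM, and the library kit does not mark strand. Acads, the short-chain enzyme, overlapped between the groups, at 55.6 to 71.2 FPKM in control and 58.8 to 69.4 FPKM in knockout. Acad9, which also acts in complex I assembly, ranged from 6.51 to 7.88 FPKM, and Acad11, an enzyme for longer acyl chains, from 1.43 to 1.94 FPKM.

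The middle steps of the spiral held the gene with the smallest p of all 34. Acaa2, the mitochondrial thiolase that splits off acetyl-CoA, lies on chromosome 18 from 74779197 to 74806208 (GRCm38, plus strand). It was at 185, 209 and 180 FPKM in control and 151, 147 and 134 FPKM in knockout ventricles. The highest knockout library lay well below the lowest control library, with means of 191 ± 15.8 and 144 ± 8.54 FPKM (SD, n = 3) and a ratio of 0.752. The change just missed the threshold (log2 change -0.41, SE 0.08, limma adjusted p = 0.0586). It passed in 2 of the alternatives: with limma voom on recovered reads (adjusted p = 0.0176, 0.65% of all genes lower) and with a filter at 5 FPKM (limma adjusted p = 0.0497, 0.647% of all genes lower). In the others its adjusted p ranged from 0.0519 to 0.215.

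Hadha and Hadhb encode the subunits of the mitochondrial trifunctional protein, which carries out the remaining steps for long chains. Hadha stood at 47.2, 55.0 and 44.4 FPKM in control and 42.6, 44.6 and 43.7 FPKM in knockout. Hadhb stood at 32.8, 37.8 and 31.5 FPKM in control and 30.3, 28.5 and 26.2 FPKM in knockout. Hadha overlapped between groups (log2 change -0.15, SE 0.09, limma adjusted p = 0.423), and Hadhb did not (log2 change -0.25, SE 0.09, limma adjusted p = 0.218). The log2 ratio of Hadha to Hadhb was 0.52 ± 0.02 in control and 0.62 ± 0.12 in knockout (SD, n = 3), with a two-sided exact permutation p = 0.4. Echs1, the short-chain enoyl-CoA hydratase, was below the control range at 23.6 to 24.2 FPKM against 25.4 to 29.3 FPKM (limma adjusted p = 0.223). Hadh, the hydroxyacyl-CoA dehydrogenase for shorter chains, ranged from 38.4 to 48.7 FPKM, and Acaa1a, a peroxisomal thiolase, from 18.3 to 22.6 FPKM. Both overlapped between the groups.

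**Figure D2:**
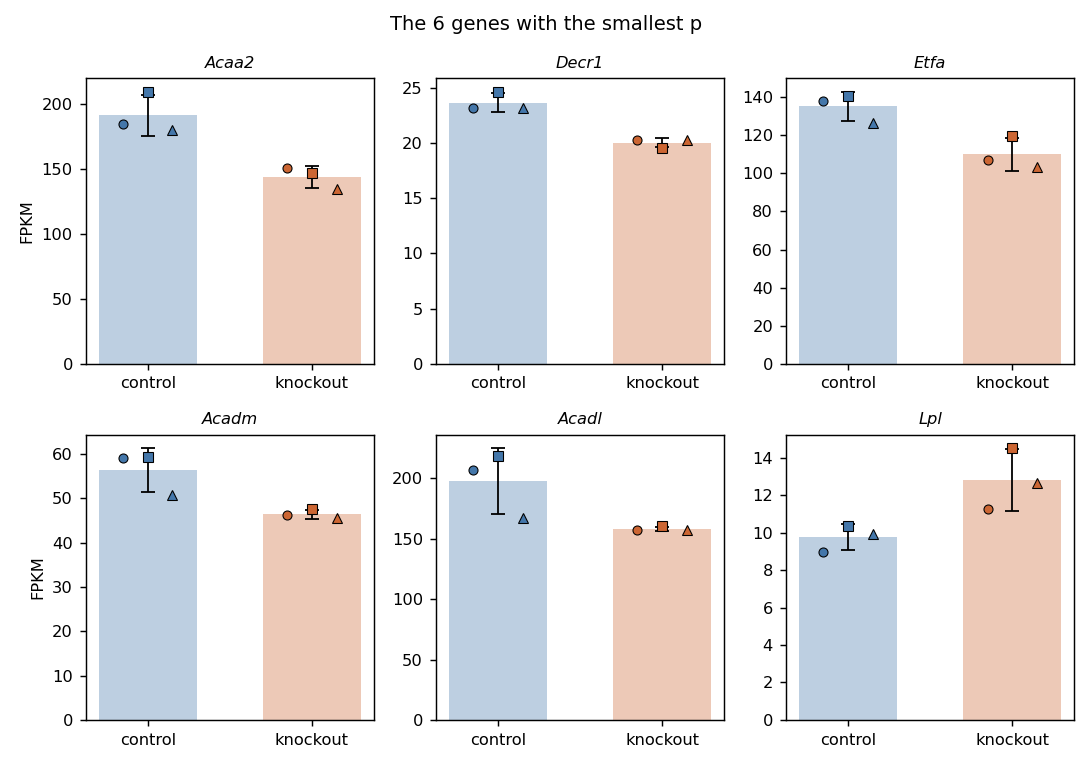
FPKM of the 6 genes with the smallest p, in control (blue) and knockout (orange); bars are means, error bars 1 SD over 3 libraries, circles, squares and triangles replicates 1, 2 and 3, and each panel has its own axis from 0. Lpl lies higher and the other genes lower in every knockout library, and none of the 6 passed the adjusted threshold (limma adjusted p of 0.0586 to 0.201).

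Unsaturated fatty acids need further enzymes that shift or reduce their double bonds. All 3 lay below the control range, as 10.4% of all genes did. Rescaled to TPM, only Decr1 stayed below it. Without haemoglobin and mitochondrially encoded genes Decr1 and Eci2 did, and with scaling by the cardiomyocyte markers only Eci1. Decr1, the dienoyl-CoA reductase, was at 23.2, 24.6 and 23.2 FPKM in control and 20.3, 19.6 and 20.3 FPKM in knockout ventricles. The spread within each group was small beside the gap between them (log2 change -0.23, SE 0.06, limma adjusted p = 0.109). Eci1, an enoyl-CoA isomerase, stood at 120 to 135 FPKM in control and 111 to 118 FPKM in knockout, and Eci2, a related isomerase, at 15.6 to 16.7 and 13.5 to 15.3 FPKM. Their limma adjusted p were 0.314 and 0.313.

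The electron transfer flavoprotein takes electrons from the dehydrogenases and hands them to ubiquinone through the oxidoreductase encoded by Etfdh. Etfa, its alpha subunit, was at 138, 141 and 127 FPKM in control and 107, 120 and 103 FPKM in knockout. The groups did not overlap (log2 change -0.30, SE 0.08, limma adjusted p = 0.126). Etfb, the beta subunit, was at 25.2, 25.0 and 25.3 FPKM in control and 24.3, 22.0 and 19.6 FPKM in knockout. The controls were nearly equal while the knockout libraries spread out below them (log2 change -0.19, SE 0.08, limma adjusted p = 0.309). Etfb shares 58.2% of its exon bases with Gm45233, listed at 0 FPKM in every library. Etfdh ranged from 19.0 to 20.2 FPKM in control and from 17.6 to 18.1 FPKM in knockout, also without overlap (limma adjusted p = 0.365).

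Of the thioesterases, which release free fatty acids from coenzyme A, Acot13 was at 157, 143 and 174 FPKM in control and 138, 127 and 143 FPKM in knockout. The groups came close without overlapping (log2 change -0.21, SE 0.09, limma adjusted p = 0.305). Acot2, the mitochondrial matrix form, overlapped, at 10.4 to 18.1 FPKM in control and 12.55 to 14.4 FPKM in knockout.

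The 4 regulators are nuclear receptors bound by fatty acids (Ppara, Ppard) and coactivators of mitochondrial genes (Ppargc1a, Ppargc1b). Ppara, a main activator of these enzymes in the adult heart, was at 0.565, 0.557 and 0.554 FPKM in control and 0.0866, 0.484 and 0.380 FPKM in knockout, from 40, 38 and 41 against 6, 36 and 26 recovered reads. It lay below the control range but was too low for the test, and knockout replicate 1 lay far under the other two. Ppard ranged from 2.28 to 2.36 FPKM in control and from 2.09 to 2.77 FPKM in knockout. Ppargc1a stood at 8.88, 10.9 and 6.59 FPKM in control and 7.90, 8.47 and 8.01 FPKM in knockout, all 3 within the control range (limma adjusted p = 0.846). Ppargc1b ranged from 1.97 to 2.40 FPKM in control and from 1.66 to 2.18 FPKM in knockout (limma adjusted p = 0.477).

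**Figure D3:**
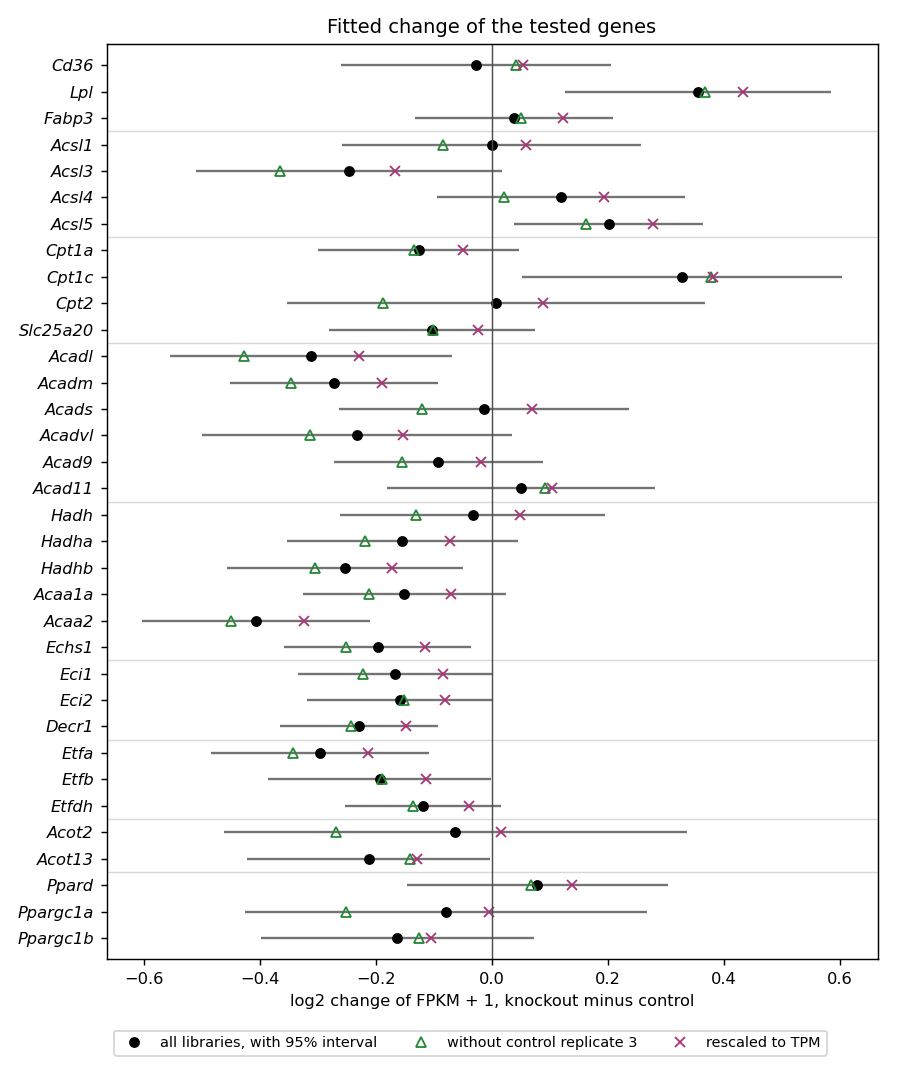
Log2 change (knockout over control, log2(FPKM + 1) scale) of the 34 tested genes ordered by role: black points with 95% intervals are the fit of all 6 libraries, green triangles the fit without control replicate 3, and purple crosses the fit after rescaling to TPM. Most black points of the oxidation steps, from Acadl to Etfdh, lie a little left of 0, with Acaa2 farthest at -0.41, and Lpl lies farthest to the right at 0.36.

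Summed by role, the middle steps, the double bond enzymes, electron transfer and the thioesterases had every knockout library below every control library. By control mean, the largest parts of these sums were Acaa2 (191 of 367 FPKM), Eci1 (129 of 169), Etfa (135 of 180) and Acot13 (158 of 173). The sums therefore describe these genes more than the other genes of each role. The acyl-CoA dehydrogenases overlapped, at 366, 387 and 303 FPKM in control and 296, 306 and 289 FPKM in knockout. These dehydrogenases, the middle steps, the double bond enzymes and electron transfer hold 18 tested genes, called the oxidation step enzymes here and grouped after their values were seen; they include the peroxisomal Acaa1a. Of the 18, 17 had a fitted change below 0 (54.1% of all genes) and 12 lay below the control range (10.4% of all genes), with a median log2 change of -0.18. Rescaled to TPM, 15 of the 18 were below 0 and the median was -0.098, where that of all genes was 0.054. The summed level of the 18 was 1085, 1147 and 971 FPKM in control and 905, 927 and 862 FPKM in knockout. The control sums were all above the knockout sums, with control replicate 3 the lowest of the controls. The thioesterases summed to 172, 161 and 184 FPKM in control and 150.3, 141 and 157 FPKM in knockout. The 3 uptake genes summed to 581 ± 10.8 FPKM in control and 599 ± 14.8 FPKM in knockout (SD, n = 3), the 4 synthetases to 37.2 ± 4.57 and 36.6 ± 0.627 FPKM, the shuttle genes to 53.0 ± 5.93 and 51.1 ± 2.53 FPKM, and the regulators to 13.9 ± 2.18 and 12.9 ± 0.964 FPKM. For none of these 4 roles did the sums separate the groups. The uptake sum was mostly Fabp3 (550 of 581 FPKM by control mean), so Lpl, higher in every knockout library, hardly showed in it. The difference between the roles was not tested.

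The lower values depended on how the libraries were scaled. With TPM, 2 of the 34 genes, Acaa2 and Decr1, stayed below the control range, where 4.08% of all genes did, and 21 had a change below 0, against 34.5% of all genes. More genes, 5 of the 34, lay above the control range (Lpl, Fabp3, Acsl4, Acsl5 and Cpt1c), where 17.5% of all genes did. This scaling moved the median of all genes from -0.015 to 0.054. Scaling without haemoglobin and mitochondrially encoded genes left 6 below the range (Acadm, Hadhb, Acaa2, Eci2, Decr1 and Etfa), against 5.08% of all genes, and put the same 5 genes as TPM above it, against 17.2%. Scaling by the cardiomyocyte markers, chosen after the data were seen, left 7 (Acsl3, Acadl, Acadm, Acaa2, Echs1, Eci1 and Etfa), against 6.93%, with Acsl4 and Acsl5 above the range, against 7.32%. Most of that marker sum was Actc1, at 5583 to 8388 FPKM, and the myosin light chains Myl2, Myl7 and Myl3. Acaa2 was below the range under all 4 scalings, the deposited one included. Acsl5 was above it under all 4. Control replicate 3 was the lowest control for 23 of the 34 genes and for 38.5% of all genes; without it 20 genes lay below the 2 remaining controls, where 21.8% of all genes did. In bulk tissue, fewer cardiomyocytes and less RNA per cardiomyocyte cannot be told apart.

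Set against the cardiomyocyte markers within each library, the 18 oxidation step enzymes summed to 5.38%, 6.21% and 6.22% of the marker sum in control and 4.98%, 4.98% and 5.09% in knockout. These genes were grouped after their values were seen, and Acadl, Acaa2, Etfa and Eci1 were the most abundant of them. The knockout shares were all lower, and control replicate 1, the library with the largest marker sum, was the control nearest to them. A list of 23 citric acid cycle genes showed the same order. These summed to 12.0%, 13.1% and 13.4% of the marker sum in control and 11.3%, 11.0% and 11.5% in knockout. Summed erythroid markers (0 of 11 called) were 8053 to 18025 FPKM in control and 7921 to 16539 FPKM in knockout. Endothelial markers (12 tested, 10 of them with a change above 0, Cldn5 called lower) summed to 174 to 236 and 196 to 240 FPKM. Fibroblast and cushion markers (0 of 8 called) summed to 315 to 502 and 300.3 to 390 FPKM. Macrophage and leukocyte markers (0 of 7 tested called, 6 with a change above 0) summed to 106 to 109.9 FPKM in control and 116 to 137 FPKM in knockout, without overlap. The part of these cells in the result was not tested. Liver markers (0 of 2 tested called) summed to 2.71 to 5.59 and 4.95 to 6.43 FPKM, most of it Apoa2 at 1.82 to 4.99 FPKM, with Fgb and Serpina1a at 0 in all libraries. Of 7 adipocyte markers 6 were under 1 FPKM in all libraries, and Cidea, a lipid droplet protein, was called higher, at 0.995 ± 0.189 against 1.94 ± 0.237 FPKM (SD, n = 3, limma adjusted p = 0.0454). That call was lost in each of the 6 leave-one-out fits (adjusted p from 0.0630 to 0.166).

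**Figure D4:**
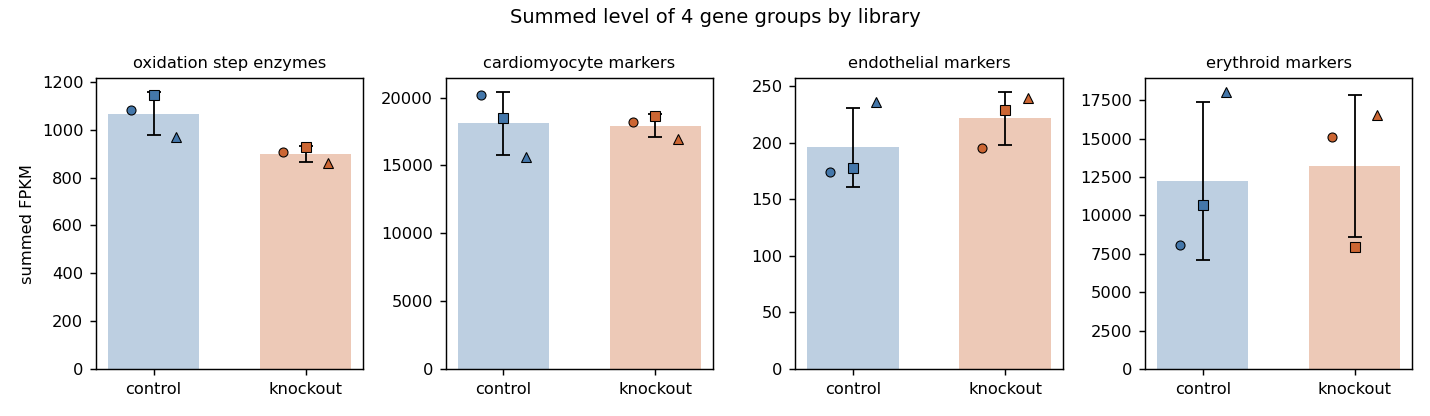
Summed FPKM of the 18 oxidation step enzymes and of the cardiomyocyte, endothelial and erythroid markers, in control (blue) and knockout (orange); bars are means, error bars 1 SD over 3 libraries, circles, squares and triangles replicates 1, 2 and 3, and each panel has its own axis from 0. Knockout sums of these enzymes, 862 to 927 FPKM, lie below the control sums of 971 to 1147 FPKM, while the marker sums of both groups overlap. The enzymes were grouped after their values were seen.

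Promoter stretches are shown for Etfa, Acadm, Acadl and the pair Hadha and Hadhb. All of these but Hadha lay below the control range. They are a selection, as 13 tested genes lay below that range, and the gene with the smallest p is not among them. RefSeq windows of 300 bases (250 before to 50 after a start, GRCm38.p6) were found for 29 of the 36 genes. The stretches are the 250 bases before the start of Etfa (chr9:55512244-55512493, minus strand), Acadm (chr3:153944644-153944893, minus strand) and Acadl (chr1:66863310-66863559, minus strand), and the 85 bases between the divergent genes Hadha and Hadhb (chr5:30155163-30155247, plus strand). Each runs 5′ to 3′ and holds 0 annotated exon bases. Capitals mark CCAAT boxes (CCAAT or its reverse complement ATTGG) in Etfa, a nuclear receptor core motif (AGGTCA, here TGACCT) in Acadm, and GC boxes (GGGCGG or CCGCCC) in Acadl and between Hadha and Hadhb.
Etfa: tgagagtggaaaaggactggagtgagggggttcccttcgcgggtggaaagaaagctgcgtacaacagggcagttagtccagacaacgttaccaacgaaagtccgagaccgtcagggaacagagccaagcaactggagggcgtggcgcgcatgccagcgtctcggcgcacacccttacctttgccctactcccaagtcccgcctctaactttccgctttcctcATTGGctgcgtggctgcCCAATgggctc
Acadm: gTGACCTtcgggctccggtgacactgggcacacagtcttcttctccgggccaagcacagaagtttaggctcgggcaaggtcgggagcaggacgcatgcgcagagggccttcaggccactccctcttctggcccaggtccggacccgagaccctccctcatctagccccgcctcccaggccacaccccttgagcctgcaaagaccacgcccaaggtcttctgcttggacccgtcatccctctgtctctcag
Acadl: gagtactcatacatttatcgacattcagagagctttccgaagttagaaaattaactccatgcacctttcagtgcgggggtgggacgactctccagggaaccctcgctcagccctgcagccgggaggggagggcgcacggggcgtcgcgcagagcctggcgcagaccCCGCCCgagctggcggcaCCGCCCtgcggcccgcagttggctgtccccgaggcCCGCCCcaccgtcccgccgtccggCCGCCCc
Hadha-Hadhb: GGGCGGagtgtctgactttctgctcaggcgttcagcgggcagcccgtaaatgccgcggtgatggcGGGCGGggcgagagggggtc
Etfa held 2 CCAAT boxes near its start, Acadl held 4 GC boxes, and the stretch shared by Hadha and Hadhb held 2 GC boxes, one at its first base. Searched on both strands, the GC box occurred in 73.3% of the 30 windows of these genes and in 35.7% of all 32851 windows. The CCAAT box occurred in 50% and 37.4%, and the core motif AGGTCA in 20% and 16.3%. The ERR element TCAAGGTCA, which contains the core motif, and the direct repeat of that motif with 1 spacer base, the kind PPARs bind, occurred in 0 windows of these genes and in 0.423% and 0.0396% of all windows. A match describes letters only, and no binding was measured.

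Further genes around the pathway were counted from lists of known function, also chosen with earlier results of these data known, with the same fit. Of the other 18 tested genes of uptake and lipolysis, 1 was called lower and 0 higher. Fabp4, the adipocyte-type binding protein also made by capillary endothelium, was at 14.3, 17.1 and 16.3 FPKM in control and 9.79, 6.81 and 10.2 FPKM in knockout. It fell to 0.561 of the control mean, and the groups lay well apart (log2 change -0.78, SE 0.14, limma adjusted p = 0.0362). The call was lost in 5 of the 6 leave-one-out fits (all but that without knockout replicate 2, adjusted p from 0.0448 to 0.114). Cldn5, an endothelial tight junction gene, was likewise lower, from 12.6 ± 1.33 to 6.69 ± 0.918 FPKM (SD, n = 3, limma adjusted p = 0.0121), while 10 of the 12 endothelial markers had a change above 0 and 0 of them were called higher. The part of endothelial cells in the Fabp4 value was not tested.

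Of 17 other genes of activation, thioesters and carnitine, 1 was called higher and 0 lower. Acot11, a thioesterase, was at 0.752, 0.835 and 0.967 FPKM in control and 1.70, 2.03 and 1.99 FPKM in knockout. It rose 2.24-fold by mean FPKM, with no overlap (log2 change 0.65, SE 0.10, limma adjusted p = 0.0162). It passed in 2 of the 6 leave-one-out fits, those without control replicate 3 and without knockout replicate 1 (adjusted p from 0.0267 to 0.0818). In the list of malonyl-CoA and fuel choice, 1 of 18 was called higher and 0 lower. Ucp2, a mitochondrial carrier linked to fuel choice, was at 20.9, 22.9 and 21.3 FPKM in control and 34.4, 31.5 and 32.7 FPKM in knockout. It rose 1.51-fold with clearly separate groups (log2 change 0.58, SE 0.07, limma adjusted p = 0.00642) and passed in each of the 6 leave-one-out fits. All 3 of these calls were lost with the scaling by cardiomyocyte markers, and those of Fabp4 and Acot11 also with no filter on low values.

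**Figure D5:**
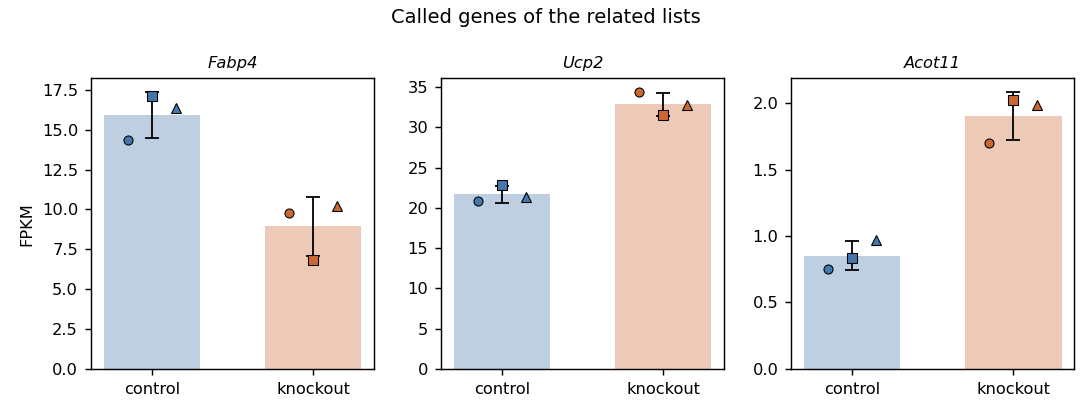
FPKM of the 3 called genes of the related lists in control (blue) and knockout (orange); bars are means, error bars 1 SD over 3 libraries, circles, squares and triangles replicates 1, 2 and 3, each panel with its own axis from 0. Fabp4 lies at 6.81 to 10.2 FPKM in the knockout, under all controls, while Ucp2 and Acot11 lie above all controls.

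Lists next to beta oxidation gave few or no calls. Of 18 other mitochondrial oxidation genes, 0 were called and 16 had a change below 0 (54.1% of all genes), with a median of -0.14. The smallest p there belonged to Ivd, of leucine breakdown, at 19.5 ± 1.60 against 14.8 ± 1.08 FPKM (SD, n = 3, limma adjusted p = 0.0678, and 0.0242 with limma voom), and Gcdh, of lysine breakdown, at 15.2 ± 0.543 against 12.3 ± 0.691 FPKM (SD, n = 3, limma adjusted p = 0.0812). Both are flavoprotein dehydrogenases that pass electrons to the electron transfer flavoprotein. Of 23 citric acid cycle genes, 0 were called and 22 had a change below 0, with a median of -0.19. Dld, a subunit shared by the matrix dehydrogenase complexes, stood at 82.9 ± 3.74 against 68.3 ± 3.77 FPKM and Sdhb, of succinate dehydrogenase, at 242 ± 13.1 against 198 ± 8.91 FPKM (SD, n = 3, limma adjusted p = 0.106 for each). Peroxisomal oxidation had 0 of 16 called and a median of -0.011, with Pex7 and Abcd3 closest to the threshold (limma adjusted p = 0.349 and 0.380). Of 21 other nuclear receptor and coactivator genes 0 were called, with a median of -0.0057. Klf15, a regulator of cardiac lipid use, had means of 2.83 and 2.01 FPKM (limma adjusted p = 0.111) and Pparg, the adipocyte receptor, 0.898 and 0.503 FPKM (limma adjusted p = 0.206). The median of the citric acid cycle list was also below that of all genes (-0.015). It stood beside -0.18 for the 18 oxidation step enzymes, which were grouped after their values were seen. Whether the lists differ was not tested.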

How the data were processed

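RNA of heart ventricles was measured in 3 control and 3 knockout libraries, extracted with TRIzol and made with a NEBNext Ultra kit per the labels' protocols. Reads were processed with HISAT2 2.0.5, featureCounts 1.5.0-p3, fastp and CASAVA on mm10, per the submitters' processing notes, which here carry no options. The deposited values are the authors' FPKM. GENCODE M21 gave symbols, exon lengths and coordinates for 54495 of 54532 IDs. Reads were recovered from FPKM and exon length, and in each library 98.1% to 98.5% of values up to 30 reads came out whole (tolerance 0.02).

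The filter was a mean of 0.5 FPKM, and the test was limma 3.58.1 in R 4.3.3 (trend, log2(FPKM + 1), genotype only, Benjamini-Hochberg adjusted p under 0.05). The procedure was run on simulated data with the same spread in every library and planted changes larger than those fitted for the tested members. That run does not cover smaller changes or a library that stands apart. Ratios of genes were compared by exact permutation tests (Python 3.11.15). Alternatives were another pseudocount (0.1), other filters, 3 other scalings, voom on recovered reads, a replicate block and leaving out each library. All 36 genes are named; from each related list up to 4 called genes, or else the 2 with the smallest p, are named. The members and lists were chosen with earlier results of these data known.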

Additional observations from a re-analysis of the deposited data

How the results depend on the processing

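The numbers shared between groups do not pair the libraries by their labels, and the correlations of same-numbered deviations were -0.0021, 0.14 and 0.16. Those of differently numbered libraries ran from -0.19 to 0.080. Whether shared numbers mark a batch was not tested. With the replicate block 220 genes were higher and 64 lower, and 0 of the 36 genes were called. In that fit Fabp4 was lost (uptake list, 0 lower) and Ivd was called (mitochondrial list, 1 lower, as with voom). The count of the 36 genes called lower was 1 with voom and with the filter at 5 FPKM, and 0 to 2 with a library left out; the count called higher was 1 with voom. All genes gave 110 higher and 12 lower with no filter, 132 higher at 5 FPKM, 419 higher with voom, 40 lower with TPM, 145 higher and 23 lower with the cardiomyocyte scaling, and 111 to 273 higher and 23 to 108 lower with a library left out. The activation list had 0 higher genes with no filter, at 5 FPKM (where Acot11 is not tested) and with the cardiomyocyte scaling; the uptake list had 0 lower with no filter and with that scaling, and the malonyl-CoA list 0 higher with that scaling and 1 lower with voom (Pdk1). Leaving out a library gave 0 to 1 for the activation list (higher), 0 to 1 lower for the uptake, mitochondrial and malonyl-CoA lists, and 0 to 2 lower for the citric acid cycle.

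Changes near 0 turned positive under TPM and under scaling without haemoglobin and mitochondrially encoded genes: Cd36 (0.054, 0.043), Acsl1 (0.058, 0.051), Acads (0.070, 0.059), Hadh (0.049, 0.039) and Acot2 (0.015, 0.0053). Acsl1 was 0.0040 with a pseudocount of 0.1, 0.019 with voom and 0.0051 with the cardiomyocyte scaling. With a library left out the range was -0.14 to 0.042 for Cd36, -0.085 to 0.12 for Acsl1, -0.19 to 0.12 for Cpt2, -0.12 to 0.056 for Acads, -0.019 to 0.10 for Acad11, -0.13 to 0.037 for Hadh, -0.27 to 0.10 for Acot2, -0.25 to 0.075 for Ppargc1a and -0.089 to 0.29 for the ratio of Ppargc1a to Ppargc1b. The cause of these changes was not tested. Depth limits Cpt1b and Ppara, with at most 29 and 41 reads.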
